A study of Nasonia vitripennis with 6 samples.

Results

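Innexins are the proteins that build gap junctions in insects, the channels that join the cytoplasm of neighbouring cells and let ions and small signalling molecules pass. In *Drosophila*, they couple epithelial cells, form electrical synapses and connect germ cells with the somatic cells around them. The innexin genes of *Nasonia vitripennis* were taken as the rows of the gene table whose annotation contains the word innexin. There were 6 such genes among 36329. They were annotated as inx1 (Nasvi2EG015809), inx2 (Nasvi2EG015812), a second inx2 (Nasvi2EG010321), inx3 (Nasvi2EG016016), inx7 (Nasvi2EG015810) and shaking-B (Nasvi2EG015805). The germ line innexin of *Drosophila*, inx4 or zero population growth, is not among these names. A search that added the words zero population growth, ogre, shaking-B, pannexin and gap junction returned the same 6 genes. Whether inx4 is present under another annotation was not examined.

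RNA-seq was carried out on the venom gland (VG), which makes the venom that females inject into fly pupae, and on the ovary, which is joined to the venom apparatus. All samples came from females of the Lab II strain that were 1 to 3 days old, mated and exposed to hosts, with 3 libraries per tissue. Each library was made from the tissue of 40 to 50 females, so it averages over many animals. Levels are normalised read counts, which are counts divided by a size factor for the library and not by gene length. For inx7, the second inx2 and shaking-B, the 3 least abundant innexins of the ovary, the mean of each tissue could be split into the reads of its single libraries, called a, b and c. For inx1 and inx2, this was possible in the VG only.

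Whole tissues were dissected, and marker genes were looked up by annotation. The germ line genes oskar and vasa had ovary means of 5422 and 9788 and VG means of 8.25 and 39.4. The VG serine protease Nasvi2EG007167 had means of 151 (ovary) and 5344426 (VG), so for these genes the tissues differed in the direction of their labels. Of the 5 genes looked up for the VG, this protease included, 4 had the higher mean in the VG and 1 in the ovary. Over 25 germ line and eggshell genes (2 with no read in either tissue), the summed ovary mean was 110727 and the summed VG mean 9709. The ovary had the higher mean for 21 of them and the VG for 2. In the same order, muscle genes (21, with 2 at 0) summed to 25119 and 15002, although 12 of them had the higher mean in the VG and 7 in the ovary. Nerve genes (22, none at 0) summed to 9558 and 7632. Fat body genes (17, with 1 at 0) summed to 9202 and 116499, of which the vitellogenin Nasvi2EG010626 held 3710 and 100996, with 5492 and 15503 left for the others. Of this list, 10 genes had the higher mean in the VG and 6 in the ovary. Blood cell genes (6, none at 0) summed to 1216 and 2894, with 5 higher in the VG. Cuticle protein genes (46, with 17 at 0) summed to 88.8 and 161, although 19 had the higher mean in the ovary and 10 in the VG. The part of these cells in the innexin values was not tested, and fewer cells of a type cannot be told apart from less RNA per cell.

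By the means, inx3 came first and inx2 second among the innexin reads of both tissues, and the third was inx1 in the ovary and inx7 in the VG. In the ovary, inx3, inx2 and inx1 together held 98.2% of the innexin reads. In the VG, inx3, inx2 and inx7 held 97.1%. Each of the 6 genes had reads in both tissues, but shaking-B had only 2 VG reads.

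**Figure D1:**
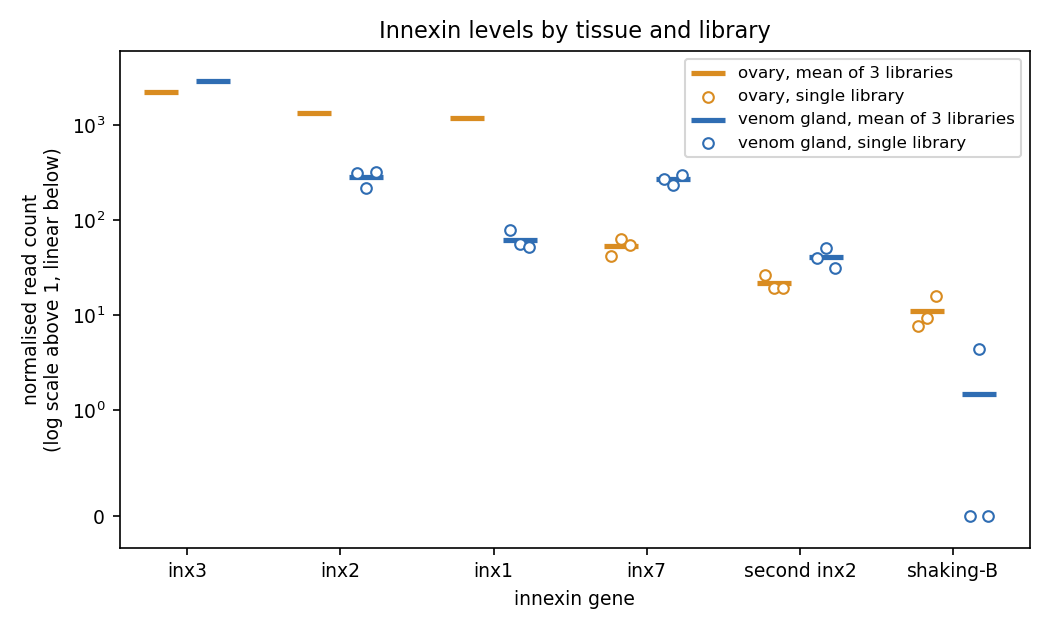
Normalised read counts (log axis above 1, linear below 1) of the 6 innexins. Horizontal dashes are the authors' means of 3 libraries and circles are single libraries, shown where the mean could be split into reads. Circles of both tissues are shown for inx7, the second inx2 and shaking-B, and inx3 has its means close together at 2210 and 2895.

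In *Drosophila*, inx3 forms mixed channels with inx2 in epithelia. In *Nasonia*, inx3 had means of 2210 (ovary) and 2895 (VG). The VG mean was 1.31 times the ovary mean on the authors' scale, and the order turned under both other scalings described below. Its reads could not be split by library, since 1561 combinations of whole reads gave the ovary mean and 13 gave the VG mean. No test was therefore run for this gene. Of the innexin reads, it held 46.0% (ovary) and 81.6% (VG).

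The gene inx2 encodes the broadly used epithelial innexin of *Drosophila*, which also works in the somatic cells of the fly ovary. Its ovary mean was 1335, made up of between 9210 and 10347 reads. Its VG libraries a, b and c held 165, 97 and 91 reads, or 315, 215 and 317 normalised counts (mean 282 ± 58.0, SD, n = 3). Each VG library was well below the ovary mean, which was 4.73 times the VG mean.

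The largest ratio was that of inx1, which corresponds to the *Drosophila* gene ogre, needed for the growth of the optic lobes. Its ovary mean was 1173, from between 8092 and 9091 reads. Its VG libraries held 41, 25 and 15 reads, or 78.2, 55.5 and 52.3 normalised counts (mean 62.0 ± 14.1, SD, n = 3). The ovary mean was 18.9 times the VG mean.

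The ovary reads of inx1 and inx2 could not be split by library, so neither difference was tested. The spread of ovary libraries was looked at in other genes, as a description and not as a test. In 717 genes with a split ovary mean between 50 and 100, the highest library was a median of 1.25 times the lowest, and 2.17 times at the 95th percentile. The highest VG library of inx1 was 6.66% of its ovary mean, and 4 of the 717 genes (0.558%) had an ovary library that far below their own mean. For inx2 the value was 23.8%, and 9 of the 717 genes (1.26%) had such a library. These genes were less abundant than inx1 and inx2, and the spread of the latter in the ovary is not known. The percentages describe spread within the ovary only, and say nothing on the spread in the VG or on the scaling between tissues. The share of all genes with VG libraries that far below the ovary mean was not counted.

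The gene inx7 was higher in the VG on the authors' scale, but not when the tissues were scaled by the totals of all genes. In *Drosophila*, it is expressed in embryonic epithelia and in the nervous system. The ovary libraries had 109, 156 and 126 reads, or 42.2, 63.2 and 54.8 normalised counts (mean 53.4 ± 10.6, SD, n = 3). The VG libraries had 141, 106 and 85 reads, or 269, 235 and 296 normalised counts (mean 267 ± 30.5, SD, n = 3). On the authors' scale every VG library was above every ovary library. The share of all genes without such overlap was not counted, so this does not set inx7 apart. The VG mean was 5.0 times the ovary mean, and the log2 difference on the scale of normalised count + 1 was 2.31 ± 0.21 (SE, limma, Benjamini-Hochberg adjusted p = 0.00018).

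The second inx2 gene was low in both tissues and higher in the VG on the authors' scale, with the direction turning when scaled by the totals of all genes or of the split reads. Its ovary libraries had 68, 48 and 44 reads, or 26.3, 19.4 and 19.1 normalised counts (mean 21.6 ± 4.06, SD, n = 3). Its VG libraries had 21, 23 and 9 reads, or 40.0, 51.1 and 31.4 normalised counts (mean 40.8 ± 9.88, SD, n = 3). On the authors' scale the libraries of the tissues did not overlap. This again was not counted over all genes and does not set the gene apart. The log2 difference was 0.87 ± 0.29 (SE, limma adjusted p = 0.037). This call was lost in 4 of the 6 fits with a library left out, which were those without ovary library b or c (limma adjusted p = 0.104 and 0.102) or VG library a or b (0.074 and 0.067). Whether reads were shared between the genes annotated as inx2 was not tested.

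The shaking-B gene was higher in the ovary on very few VG reads. In *Drosophila*, it makes the electrical synapses of the giant fibre escape circuit. Its ovary libraries had 20, 23 and 37 reads, or 7.74, 9.31 and 16.1 normalised counts (mean 11.0 ± 4.44, SD, n = 3). In the VG, library b had 2 reads, which is 4.44 normalised counts, and libraries a and c had none. With reads pooled by tissue, the ovary rate was 6.86 times the VG rate, with a Clopper-Pearson 95% interval of 1.84 to 57.7 that covers counting error only. The log2 difference was -2.72 ± 0.74 (SE, limma adjusted p = 0.018), and it was not called without ovary library b or c (limma adjusted p = 0.056 and 0.072) or without VG library a (0.054). Its size was not settled by these reads. It was -3.53 without VG library b, which held the only VG reads, and -3.36 or -1.34 with 0.5 or 5 added to the counts in place of 1. Of the 22 nerve genes, 14 had the higher mean in the VG and 8 in the ovary. Their part in the shaking-B values was not tested.

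All 3 innexins that could be tested were called, inx7 and the second inx2 towards the VG and shaking-B towards the ovary. The fit covered 6454 genes, of which 22.6% were called towards the ovary and 38.8% towards the VG, so a call in either direction was common (61.4%). The exact permutation test over the libraries of a single gene cannot go below p = 0.1 in this design, and it gave that value for each of the 3. Genes with a high ovary mean, inx1, inx2 and inx3 among them, could not be split and are missing from the calls and from this background. The median ovary mean was 5.81 in the tested genes and 636 in the 7169 others with at least 10 reads. The highest ovary mean of a tested gene was 255. The median log2 difference was 0.66 in the tested genes, and the median log2 ratio was 0.04 over all 13623 genes with at least 10 reads. The tested genes thus leaned towards the VG.

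By a 2-fold ratio of the tissue means, 3 innexins (inx1, inx2 and shaking-B) lay towards the ovary and 1 (inx7) towards the VG. The background over 13623 genes was 31.1% towards the ovary and 34.8% towards the VG. As these ratios have no replicate check, they are a description of the means.

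**Figure D2:**
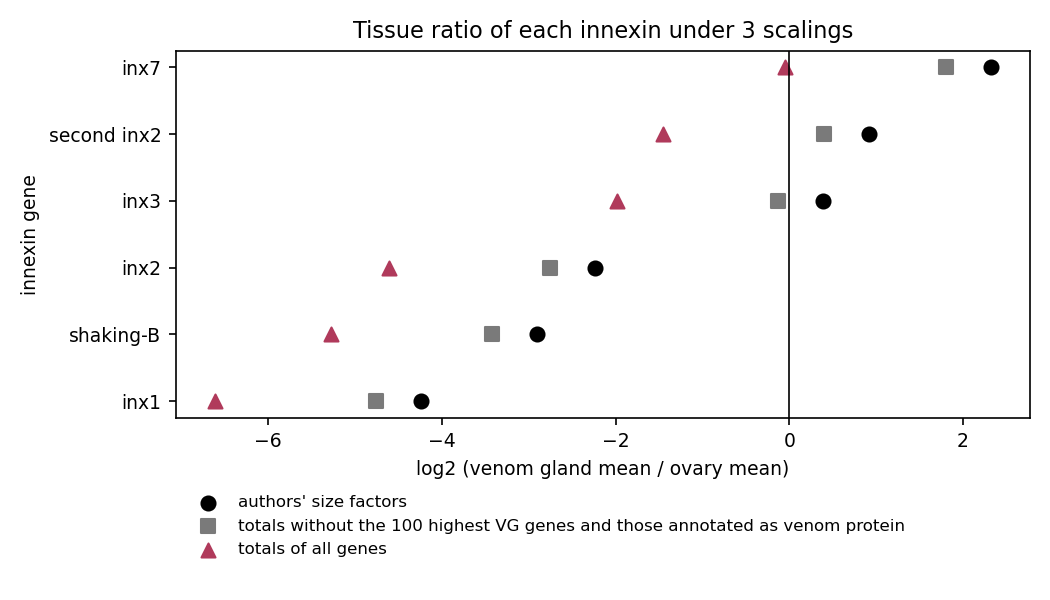
The log2 ratio of VG to ovary mean for each innexin, scaled by the authors' size factors (circles), by totals without the 100 highest VG genes and those annotated as venom protein (squares) and by totals of all genes (triangles). The genes inx1, shaking-B and inx2 lie left of 0 under each scaling, and inx3, the second inx2 and inx7 change side.

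The direction of the other innexins rested on how the tissues were scaled. The summed means of all genes were 10662081 (ovary) and 55159269 (VG), and 104 genes made up most of the latter. These were the 100 highest VG genes and the 4 genes whose annotation contains the words venom protein. Without them, the sums were 9987802 and 14285899. Dividing by the sum over all genes lowered every log2 ratio by 2.37. The median log2 ratio, over the 8532 genes that reached a mean of 10 in the ovary as well as in the VG, moved from -0.27 to -2.64. On that scale the ratio was -0.05 for inx7, -1.45 for the second inx2 and -1.98 for inx3. Then 5 of the 6 innexins lay 2-fold or more towards the ovary, against 70.4% of all genes. Leaving the 104 genes out of the sums lowered the ratios by 0.52. The ratio was then 1.81 for inx7, 0.40 for the second inx2 and -0.13 for inx3, with 3 innexins 2-fold or more towards the ovary (40.4% of all genes) and 1 towards the VG (28.0%). Summed over the family, the innexins had 4804 (ovary) and 3548 (VG) normalised counts, a ratio of 1.35. As a share of all normalised counts of a tissue, this is 0.0451% (ovary) and 0.00643% (VG), a ratio of 7.0.

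**Figure D3:**
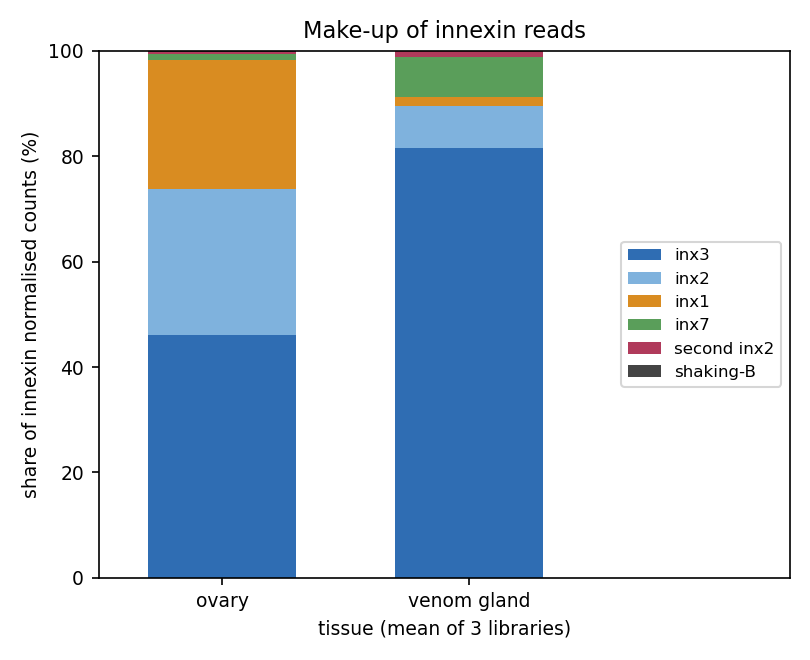
Share of the summed innexin normalised counts (%) held by each gene in the ovary and the VG, from the means of 3 libraries and not divided by gene length. The inx1 band shrinks from 24.4% in the ovary to 1.75% in the VG, and the inx7 band grows from 1.11% to 7.52%.

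The balance among the innexins does not depend on the scaling, since a factor for the tissue cancels. The ratio of inx7 to inx2 reads was 0.040 in the ovary means and 0.945 in the VG means, and 0.855, 1.09 and 0.934 in VG libraries a, b and c. The ratio of inx1 to inx2 was 0.879 in the ovary means and 0.220 in the VG means, and 0.248, 0.258 and 0.165 in the same libraries. In each VG library, inx7 and inx2 were close to each other and inx1 was well below both. For inx3 over inx1, the ratio of the means was 1.88 (ovary) and 46.7 (VG).

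With inx3 left out, VG libraries a, b and c had 368, 253 and 200 reads on the other 5 genes. Of these, inx2 took 44.8%, 38.3% and 45.5% (mean 42.9% ± 3.96, SD, n = 3), and inx7 took 38.3%, 41.9% and 42.5% (mean 40.9% ± 2.26, SD, n = 3). The shares of inx1 were 11.1%, 9.88% and 7.50%. In the ovary means, the corresponding shares were 51.5% for inx2, 45.2% for inx1 and 2.06% for inx7. In the VG, inx2 and inx7 changed order between libraries and inx1 came after them in each of the 3. Lengths differ between genes, so these shares are of reads and not of transcripts.

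**Figure D4:**
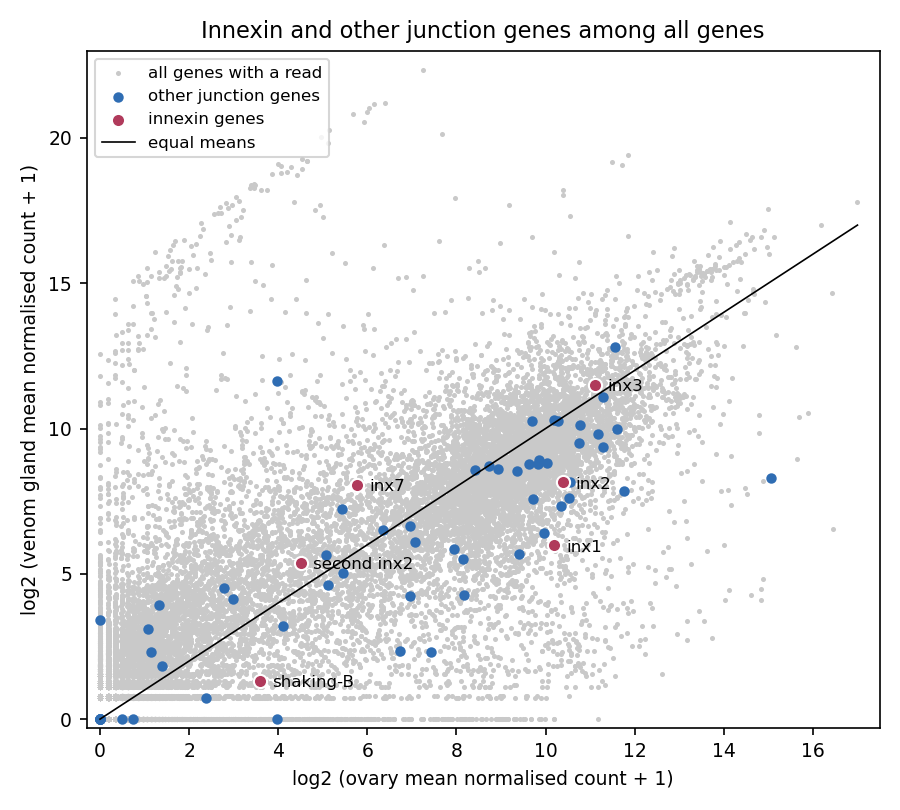
Mean normalised counts in the VG against the ovary, both as log2 of the mean + 1, for all genes with a read (grey), other junction genes (blue) and innexins (red), with a line at equal means. The gene inx3 lies next to the line at the upper end and inx1 well below it.

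Gap junctions sit beside other contacts of the cell membrane, so further junction and cell contact genes were listed by keywords in the annotation. Of 59 such genes, 50 had at least 10 reads, and their median log2 ratio was -0.90, against 0.04 over all 13623 genes. Of these 50, 22 lay 2-fold or more towards the ovary (31.1% of all genes) and 9 towards the VG (34.8%). With totals without the 104 genes, the counts were 29 (40.4% of all genes) and 7 (28.0%) and the median was -1.42. With totals of all genes, they were 43 (70.4%) and 2 (12.5%) and the median was -3.27. Only 18 could be tested with limma, and 4 were called towards the ovary (22.6% of all tested genes were) and 5 towards the VG (38.8%) at an adjusted p of 0.05. The calls in this list were near or below those shares, and those towards the VG became 3 without ovary library c or without VG library a or b. The keyword armadillo also takes in repeat proteins that are not known to act in junctions. These include the gene with the highest mean of the list, Nasvi2EG009219 (armadillo repeat-containing protein 5), with means of 34049 (ovary) and 310.4 (VG), and Nasvi2EG006923 (armadillo repeat-containing protein 7), with 3477 and 231.

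Among the most abundant of the list, Nasvi2EG003336 (disks large-associated protein 1) had means of 3009 (ovary) and 7091 (VG). It was listed for the words disks large in its annotation, and a part in junctions was not checked for it or for other keyword matches. Nasvi2EG015580 (armadillo, the beta-catenin of adherens junctions) had 2498 and 2182. Nasvi2EG000582 (disks large 1, a scaffold of septate junctions) had 3107 and 1010. The following were picked after their values were seen. Nasvi2EG000464 (the tight junction protein ZO-1) had 1250 and 1210 and Nasvi2EG006410 (catenin alpha) had 834 and 1230. Nasvi2EG013604 (DE-cadherin, the adhesion protein of epithelia) had 2516 and 655, a ratio of 3.84 beside 4.73 for inx2. Nasvi2EG009362 (lachesin, an immunoglobulin protein of septate junctions in *Drosophila*) went the other way, with 14.7 and 3187. Genes annotated as lachesin went in both directions, and the most abundant of them, Nasvi2EG013806, had 2319 and 903.

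Of the tested junction genes, Nasvi2EG003993 (cadherin-23) was higher in the VG on the authors' scale, with means of 41.9 and 148. The log2 difference was 1.79 ± 0.22 (SE, limma adjusted p = 0.00059). The log2 ratio of its means turned from 1.82 to -0.55 with totals of all genes. Nasvi2EG013057 (lachesin) was higher in the ovary, with 104.5 and 4.02 and a log2 difference of -4.51 ± 0.40 (SE, limma adjusted p = 0.00016). The choice of these 2 genes was also made with their values known.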

How the data were processed

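Libraries were stranded and enriched for polyadenylated RNA. After trimming, the authors aligned reads by Tophat2, assigned them by strand to exons of the official gene models (HTSeq-count) and scaled the counts by DESeq. No source used here names a genome build. The deposited values are a signal, the mean of the normalised counts of each tissue's 3 libraries. Columns of the deposited table with the authors' fold changes and p-values were not used.

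Means were split into whole reads per library. The value of 1 read in each library (0.129 to 0.145 in the ovary, 0.635 to 1.16 in the VG) was fitted from low means, and a mean was split only where a single combination met it within 1.5 times the rounding error of its 10 printed digits. This succeeded for 11607 of 18430 ovary means above 0 and 14120 of 16379 VG means, and no enumerated mean lacked a combination. The libraries carry no replicate number. The paper reports a lower mapped share for a VG replicate with more ribosomal RNA reads, and predicts that their removal was less effective there. Which of VG libraries a, b and c this was cannot be told from the deposited means. VG library c had the lowest size factor (0.287, against 0.525 in a and 0.450 in b). The summed means correspond to between 73558047 and 82647581 ovary reads and between 47478971 and 86802630 VG reads over the 3 libraries. Genes split in both tissues with at least 10 reads (6454 of 13623) were tested with limma 3.58.1 in R 4.3.3 with a trend on log2(normalised count + 1), two-sided, with Benjamini-Hochberg adjustment and a threshold of 0.05. Replicates were separate pools, and p-values measure the spread between them. In data simulated for the VG and ovary comparison over 6696 genes, limma called 72 of 99 genes changed by 2 log2 units, 85 of 85 changed by 4, and 6 of 6512 unchanged genes. Changed genes that could not be split are not in these counts. The simulation held no scaling shift between the tissues, and its changed genes had higher means than shaking-B. The simulation therefore cannot speak to the choice of scaling or to a gene as low as shaking-B. Its spread between libraries beyond counting error was assumed alike for every gene and not estimated from these data. Far fewer of its genes were changed than the 61.4% of real tested genes that were called. Its share of false calls holds for that setting only. Plots were drawn with matplotlib 3.10.9, and tables were made with pandas 2.3.3 and scipy 1.17.1 in Python 3.11.15 (numpy 2.4.6).

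Every innexin was named. Of the junction list, the 5 with the highest mean were named, as were the 3 annotated genes nearest to the innexin with the highest mean, and others were picked after their values were seen. The members and lists were chosen with earlier results of these data known. Alternatives were other pseudocounts, read minimums, scalings, voom weights, a threshold of 0.01 and each library left out. Division by length was not run, as lengths were not used here.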

Additional observations from a re-analysis of the deposited data

How the results depend on the processing

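Call counts under the alternatives were as follows. Over all genes, 2504 were higher in the VG and 1458 in the ovary. These were of 6454 tested genes. They became 1457 and 2433 with totals of the split reads, and 957 and 3237 with totals of all genes, a scaling that was chosen after seeing the data. A minimum of 50 reads gave 1597 and 1082, but of only 3841 tested genes. With no minimum the counts were 2475 and 1413 of 12685 tested genes. At an adjusted p under 0.01 they were 1884 and 1051 of 6454. With totals without 104 genes they were 2076 and 1770. The 5 junction genes higher in the VG, of 18 tested, became 3 of 20 with no minimum and 2 of 12 with a minimum of 50 reads. They became 1 with totals of the split reads, 3 with totals without 104 genes, 1 with totals of all genes and 3 at an adjusted p under 0.01. The 4 junction genes higher in the ovary became 8 with totals of the split reads, 10 with totals of all genes and 2 at an adjusted p under 0.01. The 3 called innexins became 1 (inx7) at an adjusted p under 0.01. With totals of all genes 2 were called, shaking-B and the second inx2, both towards the ovary. The second inx2 was thus called in the direction opposite to that on the authors' scale. Between 1 and 3 were called when a library was left out (1 without ovary library b or c or VG library a). In the same fits, the junction counts ran from 3 to 6 and from 3 to 5. Those of all genes ran from 2016 to 2667 and from 1105 to 1609, over 5983 to 6261 tested genes.

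The log2 difference of the second inx2 reversed to -0.49 with totals of the split reads (limma adjusted p = 0.20) and to -1.36 with totals of all genes (adjusted p = 0.0038), and that of inx7 to -0.036 with totals of all genes (adjusted p = 0.90). The second inx2 was not called with no minimum (0.057) or with totals without 104 genes (0.31). The ratio of inx3 reversed to -0.13 and -1.98 with totals without 104 genes and of all genes. The shift of a scaling applies to every gene alike. The share of inx2 in the innexin reads moved from 27.8% to 51.5% in the ovary and from 7.96% to 43.2% in the VG when inx3 was left out, a choice made after seeing the data. No paired analysis was possible because the deposited means carry no replicate numbers. Depth limits shaking-B, where 3 reads over the VG libraries would give a mean of up to 3.49.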

Other observations

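The identifiers of shaking-B, inx1, inx7 and inx2 fall within a run of 8 consecutive numbers of the gene set, from Nasvi2EG015805 to Nasvi2EG015812. In *Drosophila*, ogre, inx2 and inx7 are neighbours on the X chromosome. The numbering was not checked against a map here. The other 4 identifiers of the run have no annotated function, and their means reached at most 1.37 in the ovary and 6.03 in the VG. Within the run, inx1 and inx2 had higher means in the ovary and inx7 in the VG on the authors' scale.

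In the plane of log2 ovary and VG means, the annotated genes nearest to inx3 were Nasvi2EG003910 (a subunit of NADH dehydrogenase, distance 0.049), Nasvi2EG011245 (Rab-8A, a small GTPase of membrane traffic, distance 0.069) and Nasvi2EG006078 (AP-1 complex subunit mu-1, a clathrin adaptor, distance 0.069). Their ovary means ran from 2123 to 2177 and their VG means from 2767 to 2838. The likeness rests on the means of 2 tissues only. The highest mean of the family belonged to inx3 in both tissues, so no other innexin was compared in this way.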
